A study of Mus musculus with 2 samples.

Results

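The 7 genes of the epithelial machinery for reactive oxygen and nitric oxide were compared between a graft of mouse small intestinal epithelium on the colon and control colonic epithelium. They are Duox2, Duoxa2, Nox1, Noxo1, Noxa1, Cyba and Nos2, and they were taken by gene name. Each had 1 probe set annotated to it alone, so 7 genes of the 17305 on the array are described. The graft came from small intestinal cells of EGFP-transgenic mice on a C57BL6 background. Those cells were kept for 7 days as organoids, which are epithelial cultures that hold stem cells, and were then delivered into the colon of C57BL6 recipients, where the graft stayed for 4 weeks. The control was colonic epithelium of a C57BL6 mouse, described in the labels as normal. Both epithelia were cut out by laser from about 30 serial sections per specimen, and 4.33 ng of total RNA from each was amplified and hybridised to 1 array. The submitters took, from the specimens they had, the graft and the colon with the best RNA integrity. The labels used here give no ages for the mice, and no ungrafted small intestine was analysed, so region of origin and grafting cannot be told apart.

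NADPH oxidases are membrane enzymes that pass electrons from NADPH to oxygen. In the gut epithelium the dual oxidase Duox2 releases hydrogen peroxide at the apical surface, and it leaves the endoplasmic reticulum only together with its maturation factor Duoxa2. Nox1 makes superoxide and is best known from colonic epithelium. It works in a complex with the small membrane subunit Cyba, the organiser Noxo1, the activator Noxa1 and the GTPase Rac1. Nos2, the inducible nitric oxide synthase, makes nitric oxide from arginine, and its transcription is raised by cytokines and microbial products.

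Duox2 and Duoxa2 were far higher in the graft, Nox1 was lower, its 3 partner genes differed by under 2-fold, and Nos2 was moderately higher. With 1 array per group there was no replicate, no test and no p-value, and every statement below describes these 2 samples. All values are the deposited log2 levels, and all differences are graft minus colon on the log2 scale. The measure of technical error at hand compared the 2 brightest probe sets of 1 gene. The gap between their differences had an SD of 0.477 over 586 genes. That SD holds the error of 2 differences, so it is not the error of 1. It leaves out variation between animals and any error that both probe sets share. Genes were counted as apart at a 2-fold difference among the 9392 genes whose higher value was at or above 5.48, the median over all genes, and all 7 genes reached it. Of these 7, 2 were 2-fold or more higher in the graft and 1 at least 2-fold lower, where over all 9392 genes 3.55% were higher and 5.68% lower by that much. The split over all genes, with 38.5% of the genes at least 2-fold apart being higher in the graft, depends on the scaling, and with the arrays shifted so that the median difference of general epithelial genes is 0, called the epithelial shift here, it was 13.0%. In bulk RNA such as this, fewer cells of a type and less RNA per cell cannot be told apart.

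No detection call comes with the values. The 409 olfactory and vomeronasal receptor genes on the array, which gut epithelium is not expected to express, were therefore used as a picture of background. Probes differ in how strongly they bind, so this picture is a guide and no detection limit. They had a median of 4.63 on the graft array and 4.60 on the colon array, and their 95th percentile was 5.11 on the graft array and 5.13 on the colon array. Of the 14 values of the 7 genes, 12 lay above these percentiles. The other 2 were Nox1 in the graft and Nos2 in the colon. None of the 409 receptor genes differed by 2-fold, and the central 90% of their differences lay between -0.20 and 0.22.

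**Figure D1:**
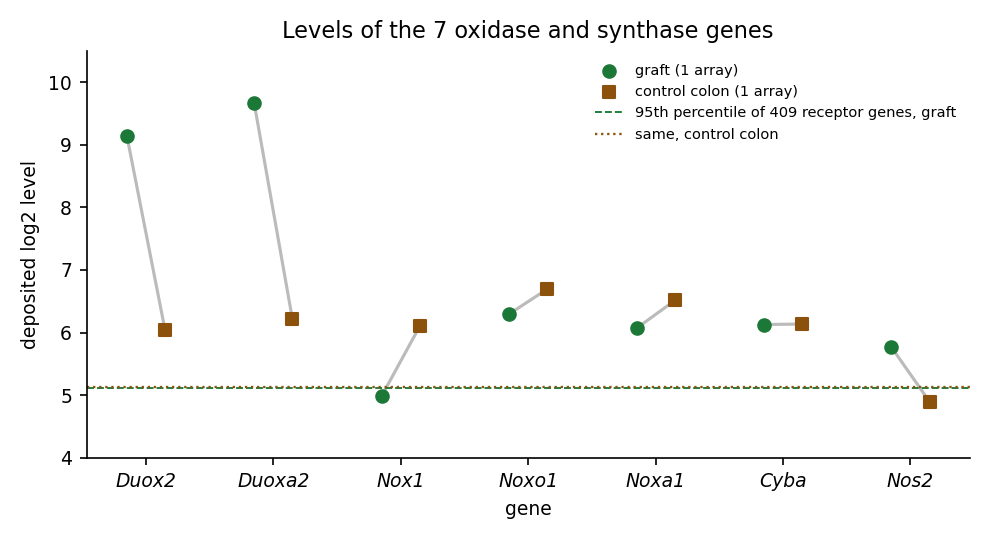
Deposited log2 level of each of the 7 genes (y axis) on the graft array (circles) and the control colon array (squares), with 1 array per group and therefore no error bars. The dashed and dotted lines mark the 95th percentile of the 409 receptor genes on each array (5.11 in the graft, against 5.13 in the control colon). Duox2 and Duoxa2 stand above 9 in the graft and near 6 in the colon, while Nox1 in the graft and Nos2 in the colon lie below the lines.

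The dual oxidase pair showed the largest differences of the 7 genes. Duox2 (probe set 10486956), the enzyme, was at 9.15 in the graft, against 6.04 in the control colon. That is a difference of 3.10, or 8.60-fold. Duoxa2 (probe set 10475448), the factor that lets the enzyme mature, was at 9.66 in the graft, against 6.21 in the control colon. The difference was 3.45, or 10.9-fold. Both genes were thus high on the graft array and intermediate on the colon array, where 1 of the 409 receptor genes reached the level of either. The gap between the differences of the 2 genes, 0.34, was below the 0.477 SD between probe sets of 1 gene. In the order of differences over the 9392 genes, Duoxa2 stood at place 33 and Duox2 at place 40.

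The pair is shown by its promoters because the 2 genes differed in the same direction by similar amounts and begin close to each other. Both lie on mouse chromosome 2 as neighbours that are read in opposite directions, with their annotated starts 673 bases apart. RefSeq (build GRCm38.p6) gives promoter windows of 300 bases, from 250 before to 50 after each start, for 6 of the 7 genes, and Nos2 is the remaining one. The Duox2 window is chr2:122298178-122298477 on the minus strand and the Duoxa2 window is chr2:122298650-122298949 on the plus strand, with 172 bases between them. The Nox1 window, chrX:134111805-134112104 on the minus strand, is shown as that of the gene with the opposite difference. Each is written from 5′ to 3′ in the direction of its gene, and capitals mark the matches to the motifs searched, none of which overlap.
Duox2: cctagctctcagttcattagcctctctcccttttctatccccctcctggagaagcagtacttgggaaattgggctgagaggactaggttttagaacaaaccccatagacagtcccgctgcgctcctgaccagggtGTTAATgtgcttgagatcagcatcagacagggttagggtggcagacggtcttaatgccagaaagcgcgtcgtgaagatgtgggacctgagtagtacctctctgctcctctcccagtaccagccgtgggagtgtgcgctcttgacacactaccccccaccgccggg
Duoxa2: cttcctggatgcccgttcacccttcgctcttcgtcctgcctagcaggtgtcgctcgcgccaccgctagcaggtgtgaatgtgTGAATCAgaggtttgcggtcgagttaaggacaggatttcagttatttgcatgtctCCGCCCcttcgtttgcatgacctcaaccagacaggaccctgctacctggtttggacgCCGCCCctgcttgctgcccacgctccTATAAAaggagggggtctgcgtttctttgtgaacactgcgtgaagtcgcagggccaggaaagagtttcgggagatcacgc
Nox1: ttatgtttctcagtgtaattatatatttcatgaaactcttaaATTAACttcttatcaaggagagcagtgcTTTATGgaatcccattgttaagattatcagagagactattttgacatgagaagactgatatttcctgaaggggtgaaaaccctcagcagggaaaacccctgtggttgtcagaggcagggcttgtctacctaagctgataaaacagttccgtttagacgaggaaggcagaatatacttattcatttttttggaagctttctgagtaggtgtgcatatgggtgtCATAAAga

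The letters of 9 short motifs were searched on both strands of these windows. The Duoxa2 window held a TATA match, TATAAA, 30 bases upstream of the start, and 2 SP matches (GGGCGG) on the opposite strand at 113 and 56 bases upstream. It also held 1 match to the letters searched for AP-1 (TGANTCA), which read TGAATCA, at 168 bases upstream. N allows any base, so these letters are looser than the AP-1 element. The Duox2 window held 1 HNF1 match, GTTAAT, at 115 bases upstream and no other. The Nox1 window held an HNF1 match on the opposite strand at 208 bases upstream and a CDX match, TTTATG, at 180 bases upstream. A further CDX match on the opposite strand began at position 43 after the start. The letters searched for kappaB, STAT (TTCNNNGAA), the interferon response element and the GATA factors (AGATAA) were in none of these 3 windows. Each was searched as 1 pattern of letters only. Looser or other forms, among them those for GATA and kappaB, were not searched, so the absence of such sites was not tested. Among all 32851 promoter windows, 13.6% held the TATA letters, 35.7% SP, 7.81% AP-1, 7.10% HNF1 and 11.9% CDX. The shares were 1.17% for kappaB, 8.30% for STAT, 3.44% for the interferon element and 11.2% for GATA. GC made up 55.3% of the Duox2 window, 56.7% of the Duoxa2 window and 38.0% of the Nox1 window, beside a median of 52.7% over all windows. A match is a description of letters and shows no binding.

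Duox1 and Duoxa1, the paralogous enzyme and maturation factor, follow the pair directly on the chromosome and gave no such difference. Duox1 stood at 4.50 in the graft, against 4.45 in the control colon, within the receptor gene background on both arrays. Duoxa1 had exactly the same value, 5.36, on both arrays, as did 12.1% of all probe sets, so its difference of 0 is a property of the table that cannot be read as a measured equality. The protein-coding neighbours on either side, 5 each way and chosen after the values of the pair were known, were also read. Of these 10 genes, 9 were measured, 1 was 2-fold or more higher in the graft and 1 at least 2-fold lower, with a median difference of 0.083. Over all 17305 genes, 1.93% were at least 2-fold higher and 3.09% at least 2-fold lower. The nucleoside transporter gene Slc28a2 was at 6.44 in the graft, against 4.37 in the control colon, where it lay within the background, a difference of 2.07. Slc28a2 has a close relative beside it, Slc28a2b, so its probes may not be specific to 1 gene. Gatm, which encodes the creatine synthesis enzyme glycine amidinotransferase, was at 5.11 in the graft, against 6.91 in the control colon, a difference of -1.80. The other 7 measured neighbours had differences between 0 and the 0.71 of B2m, the light chain of MHC class I.

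**Figure D2:**
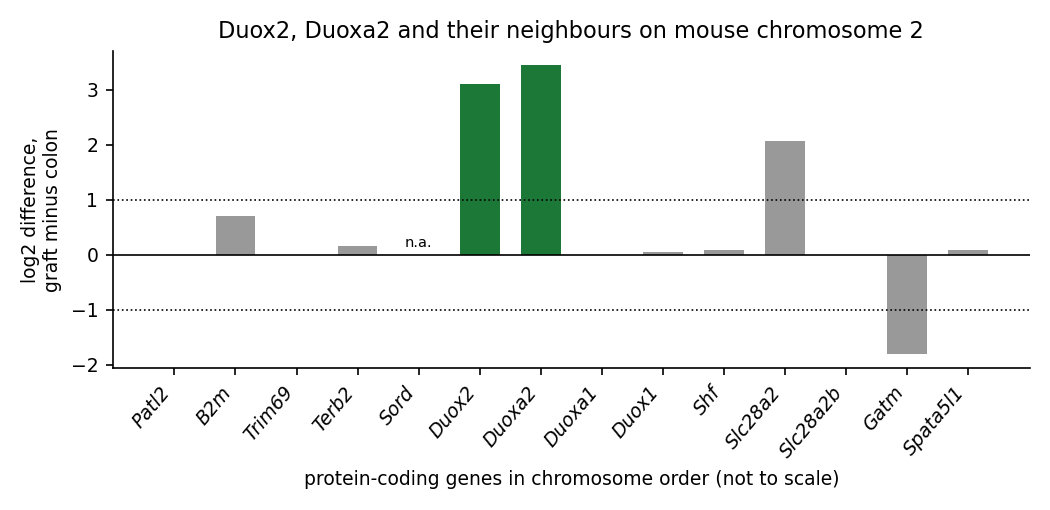
Log2 difference, graft minus colon (y axis), of Duox2, Duoxa2 (green), their paralogues and the 5 protein-coding genes on either side, in chromosome order and not to scale. The dotted lines mark 2-fold, and n.a. marks a gene not analysed here. Bars are 1 difference each with no error available, and those of Duox2 (3.10) and Duoxa2 (3.45) are the tallest.

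The Nox1 complex showed a different picture, and of its 4 genes the enzyme alone was past 2-fold. All 4 differences were below 0, except that of Cyba under quantile normalization. So were the differences of 5075 of the 9392 genes, so the shared sign says little. Nox1 (probe set 10606640, X chromosome), the catalytic subunit, was at 4.99 in the graft, against 6.11 in the control colon. The difference was -1.12, or 2.17-fold lower in the graft, and the gene stood at place 435 from the lower end of the 9392. On the graft array 42 of the 409 receptor genes were at or above the Nox1 level, against 1 on the colon array. The Nox1 signal in the graft could not be separated from background, so the fold may be understated by an unknown amount. Noxo1 (probe set 10442565, chromosome 17), the organiser, was at 6.30 in the graft, against 6.70 in the control colon, a difference of -0.40. Noxa1 (probe set 10480585, chromosome 2), the activator, was at 6.07 in the graft, against 6.51 in the control colon, a difference of -0.44. Noxo1 and Noxa1 thus lay slightly lower in the graft and above background on both arrays. Their differences were below the SD of 0.477, which is that of a gap between 2 probe sets and sets no limit for 1 difference. With the epithelial shift these differences were -0.78 and -0.83, and with arrays centred on the median level of the epithelial genes -0.60 and -0.64, all beyond that SD. Cyba (probe set 10582303, chromosome 8), the membrane subunit that several oxidases share, was at 6.13 in the graft, against 6.14 in the control colon. Its difference of -0.007 was 0.039 under quantile normalization, so it has no direction.

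Nos2 (probe set 10379228, chromosome 11), the inducible nitric oxide synthase, was at 5.77 in the graft, against 4.90 in the control colon. The difference of 0.87, or 1.83-fold, stayed under the 2-fold threshold and was larger than the SD of 0.477 between probe sets. With the epithelial shift it was 0.49, close to that SD. With arrays centred on the median level of the epithelial genes it was 0.67. Nos2 stood at place 408 of the 9392 genes. On the colon array 54 of the 409 receptor genes were at or above the Nos2 level, and on the graft array 2 were. Its colon level could not be separated from background, so the fold may be understated.

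**Figure D3:**
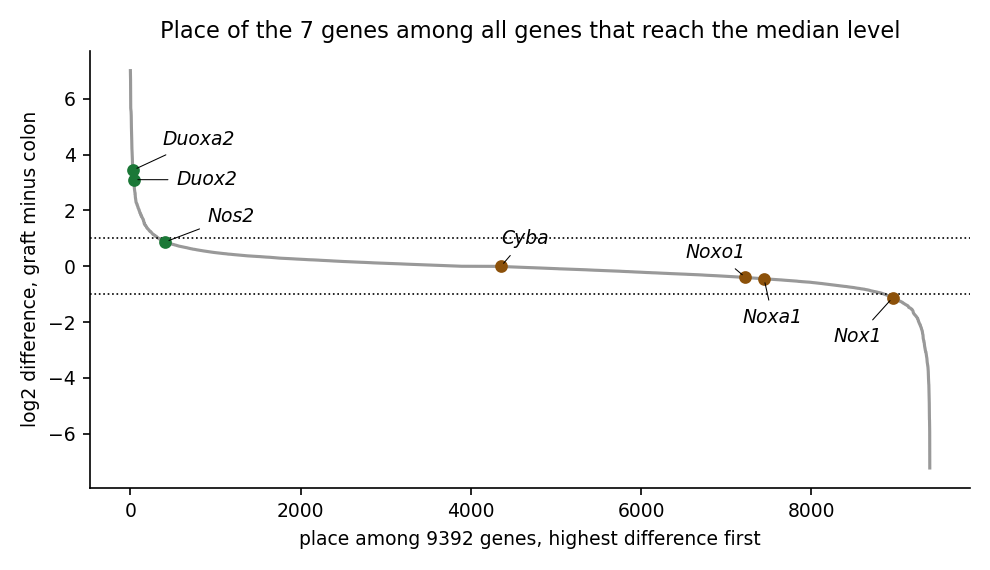
Log2 difference, graft minus colon (y axis), of the 9392 genes that reach the median level, in falling order (x axis, place in the order). The dotted lines mark 2-fold. Points are the 7 genes, green where the difference is above 0 and brown where it is below. Duoxa2 and Duox2 sit at places 33 and 40, Nos2 at place 408 just inside the line, Cyba near 0, and Nox1 just past the lower line.

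Genes with the most similar difference were read from the same order, with Gm- and Rik-named genes left out. Likeness here is the gap between log2 differences, which over 2 arrays is a single comparison and says nothing of shared control. Nearest to Duoxa2 were the MHC class II gene H2-Ab1 (3.52) and the adenosine deaminase gene Ada (3.51), and then the ubiquitin-like modifier Ubd (3.38) and Hkdc1 (3.29). Nearest to Duox2 were the mitochondrial arginase Arg2 (3.28), the amino acid transporter subunit Slc7a9 (3.13), Myrfl (3.08) and Myl7 (2.99). Of these 8 genes, H2-Ab1 and Ada were above background on the colon array, and the other 6 were within it. The differences of those 6 may be understated, so their likeness to the pair is not determined. Around Nox1 the order is dense. Pja2, Crim1, Lgr4 and Rybp all had differences between -1.119 and -1.115.

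The other subunits of the oxidase family were mostly dim. Of 11 further subunit genes listed, 8 were analysed here, of which 1 was 2-fold or more higher in the graft and 0 lower, with a median difference of 0.025, or -0.36 with the epithelial shift. The median over all 17305 genes was 0, and 1.93% of them were at least 2-fold higher and 3.09% at least 2-fold lower. Rac1, the GTPase of the Nox1 complex, was at 9.35 in the graft, against 9.66 in the control colon. The phagocyte enzyme Cybb was at 5.10 in the graft, within background, against 5.42 in the control colon. Its cytosolic partners Ncf1 and Ncf4 were within the receptor gene background on both arrays. Cybc1, a chaperone of the phagocyte oxidase, had a difference of -0.077.

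Genes for making, using and limiting nitric oxide and its substrate arginine went both ways. Of 16 listed, 15 were analysed, 3 were 2-fold or more higher in the graft and 1 was lower, with a median of 0. The shares over all 17305 genes were 1.93% higher and 3.09% lower. Arg2, which competes with Nos2 for arginine, was at 8.20 in the graft, against 4.92 in the control colon, where it lay within background. Its difference of 3.28, or 9.74-fold, may therefore be understated. Gch1, the first enzyme in the synthesis of the synthase cofactor tetrahydrobiopterin, was at 7.37 in the graft, against 5.95 in the control colon, a difference of 1.42. The arginine transporter gene Slc7a1 had a difference of 1.16, or 2.23-fold, and was under 2-fold with the epithelial shift. Nostrin, named as a trafficking protein of the endothelial synthase, was at 6.83 in the graft, against 8.34 in the control colon, a difference of -1.51. The other synthases Nos1 and Nos3 each had the same value on both arrays, 4.92 for Nos1 and 4.75 for Nos3, and both were within background. The remaining tetrahydrobiopterin genes Gchfr, Pts, Spr and Qdpr had differences between -0.32 and 0.20.

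The list around the supply of NADPH, the substrate of all these enzymes, had the highest median of the 7 pathway lists, at 0.59 over 7 of 8 listed genes. It includes pentose phosphate pathway genes whose enzymes make no NADPH themselves, such as Tkt and Pgls. G6pdx, whose enzyme makes NADPH in that pathway, was not analysed. Of the 7 analysed, 3 were 2-fold or more higher in the graft and 0 lower, beside 1.93% higher and 3.09% lower over all 17305 genes. Me1, the cytosolic malic enzyme, was at 8.56 in the graft, against 4.70, within background, in the control colon. Its difference of 3.86, or 14.5-fold, exceeded those of the dual oxidase pair. Tkt and Pgd, transketolase and phosphogluconate dehydrogenase of the pentose phosphate pathway, had differences of 1.33 and 1.06. Pgls of the same pathway had a difference of 0.59, and Idh1, a source of NADPH outside it, of -0.38. With the arrays shifted to a median epithelial difference of 0, which lowers every difference by 0.38, only Me1 of this list was past 2-fold.

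Of 17 listed genes that remove superoxide and peroxide, 15 were analysed, 2 were 2-fold or more higher in the graft and 0 lower, with a median of 0.17. Again, the shares over all 17305 genes were 1.93% higher and 3.09% lower. Gsr, glutathione reductase, was at 9.47 in the graft, against 7.96 in the control colon, a difference of 1.51. Gpx2, the gastrointestinal glutathione peroxidase, was at 11.88 in the graft, against 10.56 in the control colon, a difference of 1.32. Gpx1 and the peroxiredoxin Prdx1 had differences of 0.80 and 0.57, and the superoxide dismutases Sod1 and Sod2 of 0.17 and -0.11. With the epithelial shift Gpx2 was no longer past 2-fold and the median of the list was -0.21. The haem peroxidases Lpo, Mpo and Epx, which use hydrogen peroxide to make antimicrobial products, were within background on both arrays.

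Receptors and factors known to act upstream of Duox2 and Nos2 were also listed. Of 22 genes, 17 were analysed, 0 were at least 2-fold higher and 2 at least 2-fold lower, with a median of -0.48, beside 1.93% higher, 3.09% lower and a median of 0 over all 17305 genes. Ifngr1, a chain of the interferon gamma receptor, was at 7.82 in the graft, against 9.31 in the control colon, a difference of -1.49. Tlr4, the lipopolysaccharide receptor, was at 5.76 in the graft, against 7.24 in the control colon, a difference of -1.48. The interleukin 22 receptor chains Il22ra1 and Il10rb had differences of -0.66 and -0.67, the adaptor Myd88 of -0.76 and Hif1a of -0.81. Irf1, an interferon-induced transcription factor that binds the Nos2 promoter, was highest of the list at 0.85. With arrays centred on the median level of the epithelial genes 3 were at least 2-fold lower and the median was -0.67, and with the epithelial shift 6 were and it was -0.86.

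Epithelial genes that microbes or inflammation induce went both ways. Of 17 genes, all analysed, 6 were 2-fold or more higher in the graft and 4 at least 2-fold lower, with a median of 0.14. Beside these counts, 1.93% of all 17305 genes were higher and 3.09% lower by that much. With the epithelial shift the counts in the list were 4 and 5, and its median was -0.24. Retnlb, a bactericidal goblet cell protein, was 5.57 higher on the log2 scale, and Reg3b and Reg3g, secreted lectins that bind bacteria, were 2.79 and 1.53 higher, all 3 from colon levels within background. Nfkbiz, a nuclear regulator of NF-kappaB target genes, had a difference of 1.24. Saa1, a serum amyloid A gene, was at 5.51 in the graft, against 11.00 in the control colon, a difference of -5.49. Slc6a14, an amino acid transporter, had a difference of -4.51 with a graft level within background, the cytokine Il18 of -3.47 and the chemokine Ccl28 of -2.44. Lcn2, an iron-scavenging protein often read as a sign of gut inflammation, was at 4.93 in the graft, against 4.79 in the control colon, both within background. The neutrophil chemoattractant Cxcl1 had a difference of 0.16.

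**Figure D4:**
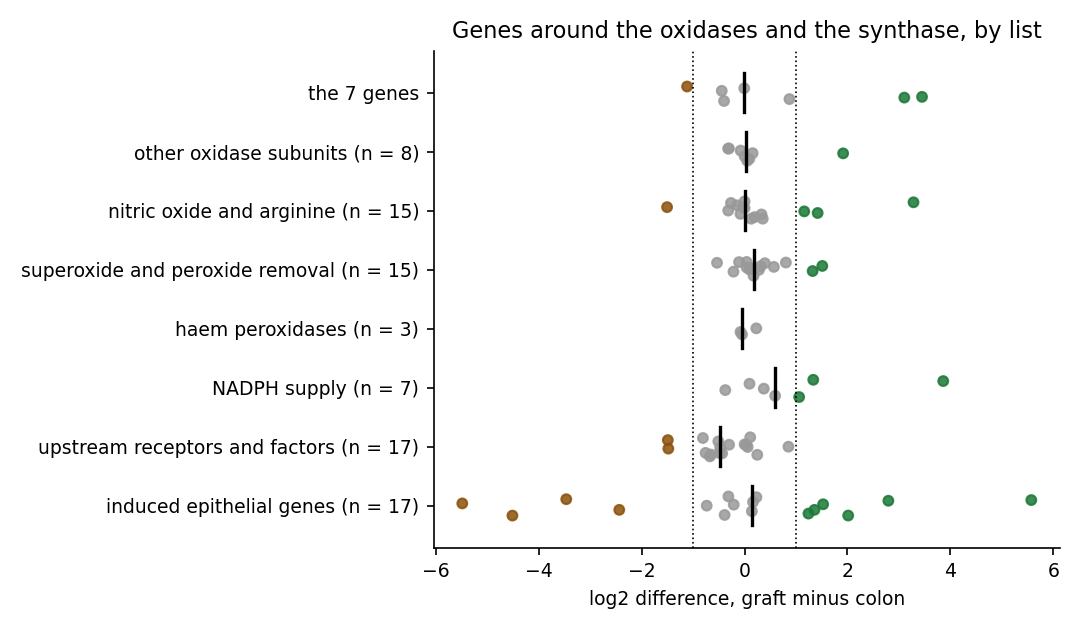
Log2 difference, graft minus colon (x axis), of each analysed gene of the 7 oxidase and synthase genes and of 7 surrounding lists (rows, number of genes in brackets). Points are genes, green at 2-fold higher or more, brown at 2-fold lower or more and grey between, and the black bars are medians. Dotted lines mark 2-fold. The induced epithelial genes spread from -5.49 to 5.57, while the haem peroxidases lie near 0.

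Marker genes of the tissues and of other cells were read beside these results. Of 9 small intestinal markers, 8 were past 2-fold, between the 2.61 of Gata4 and the 5.67 of Fabp1 higher in the graft, and the exception was lactase, Lct, at 4.92 in the graft, against 4.64 in the control colon. All 8 colonic markers were past 2-fold in the other direction, between the -3.08 of Hoxd13 and the -7.23 of Car1, and 0 of 12 general epithelial genes differed by 2-fold. Graft levels of Car1, Hoxd13, Aqp8, Cyp2c55 and Tgm3 lay within background, as did colon levels of Fabp1, Sis, Alpi, Mttp and Lyz1. The differences of these genes may be understated. Among all 17305 genes, 1.93% were at least 2-fold higher and 3.09% at least 2-fold lower. Leukocyte genes bear on Nos2 and Cyba, which macrophages or neutrophils also express. Of 11 macrophage markers 0 differed by 2-fold, and their summed level on the linear scale, in arbitrary units, was 707 in the graft, against 644 in the control colon. Of 9 analysed neutrophil markers 2 were 2-fold or more higher in the graft, S100a8 by 2.01 and S100a9 by 1.36, both from colon levels within background. These 2 genes are also counted among the induced epithelial genes above. The summed level of the 9 was 380 in the graft, against 227 in the control colon. With the epithelial shift only S100a8 was past 2-fold. Without S100a8 and S100a9, which epithelium can also express, the summed level was 220 in the graft, against 177 in the control colon. Of the 7 remaining markers, 5 were within background on both arrays, namely Elane, Camp, Ngp, Csf3r and Retnlg. The other 2, Cxcr2 and Mmp9, were above background in the graft alone, with differences of 0.96 and 0.57. Lymphocyte and plasma cell markers summed to 614 in the graft, against 525 in the control colon, with 0 of 8 at 2-fold. Stromal markers summed to 672 in the graft, against 925 in the control colon, with 1 of 11, Lum, at least 2-fold lower. The part of these cells in the values of Nos2 and Cyba was not tested.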

How the data were processed

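Total RNA of 2 samples, 1 graft and 1 control colon, was measured on single-channel arrays. The deposited table gives, for 24074 probe sets, the authors' log2 level on each array. The log2 scale was read from the values (4.19 to 13.37 on the graft array, 4.22 to 13.46 on the colon array, medians 5.44 and 5.43). Background correction, normalization and array centring are unknown, since no label or header names them, and genes were not centred. Probe sets with exactly 1 gene symbol in the platform annotation were used, the brightest by mean of both arrays standing for a gene. Differences are graft minus colon with no further normalization (Python 3.11.15, pandas 2.3.3, numpy 2.4.6). The number of arrays limits the precision. Motifs were searched in RefSeq promoter windows. Counting was tested on simulated data. The 7 genes, the lists and the motifs were chosen with earlier results of these data known. Named genes are the 7, up to 4 genes per list with the largest absolute difference among those reaching the median level, the nearest genes in the order of differences, and list genes that bear on these. The remaining list genes, the marker genes and the neighbours on the chromosome were named after their values were seen. A further oxidase subunit gene counted in its list is not reported here by name. Alternatives were other scalings, probe set rules, low-value filters and fold thresholds.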

Additional observations from a re-analysis of the deposited data

How the results depend on the processing

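The differences of the 7 genes moved by at most 0.38 on the log2 scale under 6 alternatives of scaling and probe set choice. That largest move is the constant by which the epithelial shift lowers every difference. The centrings also move all genes by 1 constant, so among the scalings only quantile normalization could move the 7 genes by unlike amounts. Its largest move of any of them was 0.066. Duox2 ranged from 2.72 to 3.17, Duoxa2 from 3.07 to 3.46, Nox1 from -1.50 to -1.10, Noxo1 from -0.78 to -0.33, Noxa1 from -0.83 to -0.39, Cyba from -0.39 to 0.039 and Nos2 from 0.49 to 0.87. Each of the 7 has 1 probe set annotated to it alone, so taking the mean of all such probe sets could not move them. Allowing probe sets with several symbols did not move them. The number of the 7 at least 2-fold lower was 0 with a filter at the 75th percentile of gene values, because Nox1 no longer entered, and 0 at a 4-fold threshold. Over all genes, 333 were higher and 533 lower. These counts were 791 and 1368 at 1.5-fold and 103 and 129 at 4-fold. With arrays centred on the median level of the epithelial genes, which shifts all differences by -0.20, 817 were lower. With arrays shifted so that the median epithelial difference is 0, an alternative chosen after seeing the data that shifts them by -0.38, 194 were higher and 1296 lower. No paired analysis was possible because each group holds 1 array, and no replicate could be left out. Signal over background limits Nox1 in the graft and Nos2 in the colon.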
